A study of Homo sapiens with 24 samples.

Results

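The genes described here are 52 genes of mitosis, listed by symbol: the kinases that drive entry into mitosis, the chromosomal passenger complex, the spindle checkpoint, the kinetochore, mitotic kinesins, spindle microtubule proteins, cytokinesis factors, the machinery of anaphase onset and the proteins that shape chromosomes. All 52 were found among the 52994 genes to which the transcripts could be assigned. Total RNA, with ribosomal RNA removed, was sequenced in strand-specific paired-end libraries from UCSD-AML1 and ELF-153, 2 human acute myeloid leukaemia (AML) cell lines. Every culture grew in RPMI with 20% foetal calf serum, antibiotics and 5 ng/ml human GM-CSF, a myeloid growth factor. Cells were left untreated or received 100 nM decitabine (DAC) on 4 days in a row, with the medium and the drug renewed each day. RNA was taken at 96 h and at 144 h, so the 8 groups are untreated and DAC-treated cells of each line at each harvest, with 3 libraries a group and 24 in all. The labels call the 144 h samples treated for the whole time to harvest, while the protocol gives 4 days of drug. The 3 libraries of a group are technical triplicates of a single line, so every p-value below measures only the spread between these samples.

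Decitabine is a deoxycytidine analogue that is built into DNA during replication, traps DNA methyltransferases there and lowers DNA methylation in dividing cells. Mitotic genes are transcribed mainly late in the cell cycle. They are kept off in resting cells by the DREAM complex and switched on by the MYBL2 and FOXM1 complexes, which act at promoters through a cell cycle genes homology region (CHR) and through CCAAT boxes bound by NF-Y. Their RNA level in a bulk sample is widely read as a measure of how many cells are cycling. In bulk RNA, fewer cells in mitosis and less mitotic RNA per cell cannot be told apart.

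The members share these promoter letters. RefSeq promoters (GRCh38.p14, from 250 bases before to 50 bases after the start of transcription) matched 43 of the 52 members by symbol. The search was for the CHR, spelled TTTGAA or TTCGAA, and for CCAAT, each on both strands. TTCGAA reads the same on both strands, the motifs can share end letters, and a match is a string of letters and not a measured binding site. The CHR stood in 34 of 43 member promoters (79.07%), against 16.35% of all 35116 promoters of the same length. CCAAT stood in 31 (72.09%), against 34.61%, and 18 members (41.86%) held 2 or more, against 10.75%. Both motifs stood together in 26 members (60.47%), against 6.376%. In 29 members a CHR lay within 50 bases of the start. Below are the 4 members with a CHR whose DAC changes, averaged over both lines and harvests, were the most negative, and TACC3, whose average change was the nearest to 0. The averages on the log2 scale are -3.41 for KIF15, -3.18 for NCAPG, -3.07 for KIF4A, -3.03 for KIF11 and -0.39 for TACC3. Each stretch runs from 160 bases before to 20 bases after the start on the plus strand, at chr3:44761634-44761813, chr4:17810819-17810998, chrX:70289944-70290123, chr10:92592970-92593149 and chr4:1720471-1720650 in that order. Capitals mark a CHR or a CCAAT box, in either orientation.
KIF15: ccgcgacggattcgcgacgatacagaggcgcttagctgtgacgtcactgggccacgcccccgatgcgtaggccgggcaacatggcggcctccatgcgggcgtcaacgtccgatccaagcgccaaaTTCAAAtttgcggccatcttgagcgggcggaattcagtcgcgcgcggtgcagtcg
NCAPG: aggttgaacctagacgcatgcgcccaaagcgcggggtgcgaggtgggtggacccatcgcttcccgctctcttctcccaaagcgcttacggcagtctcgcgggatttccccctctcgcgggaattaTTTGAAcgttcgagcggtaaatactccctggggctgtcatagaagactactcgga
KIF4A: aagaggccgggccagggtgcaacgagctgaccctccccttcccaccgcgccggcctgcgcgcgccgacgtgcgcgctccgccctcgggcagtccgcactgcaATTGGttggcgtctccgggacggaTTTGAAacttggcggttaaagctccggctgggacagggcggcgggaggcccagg
KIF11: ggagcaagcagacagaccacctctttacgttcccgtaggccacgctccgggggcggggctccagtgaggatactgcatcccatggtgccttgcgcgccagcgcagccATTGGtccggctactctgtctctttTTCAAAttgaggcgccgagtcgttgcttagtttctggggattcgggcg
TACC3: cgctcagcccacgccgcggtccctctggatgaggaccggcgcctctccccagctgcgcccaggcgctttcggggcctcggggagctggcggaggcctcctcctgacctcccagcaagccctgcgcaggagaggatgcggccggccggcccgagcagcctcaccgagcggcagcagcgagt
In these stretches KIF15 and NCAPG hold a CHR alone, KIF4A and KIF11 hold a CHR downstream of a CCAAT box, and TACC3 holds neither set of letters. The choice of members with a CHR left out KIF20A (-3.17) and NEK2 (-3.06). Their averages were more negative than that of KIF11, and their promoters hold CCAAT without a CHR. BUB1, with an average of only -0.55, holds both motifs. Whether the motifs go with the size of the change was not tested.

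**Figure D1:**
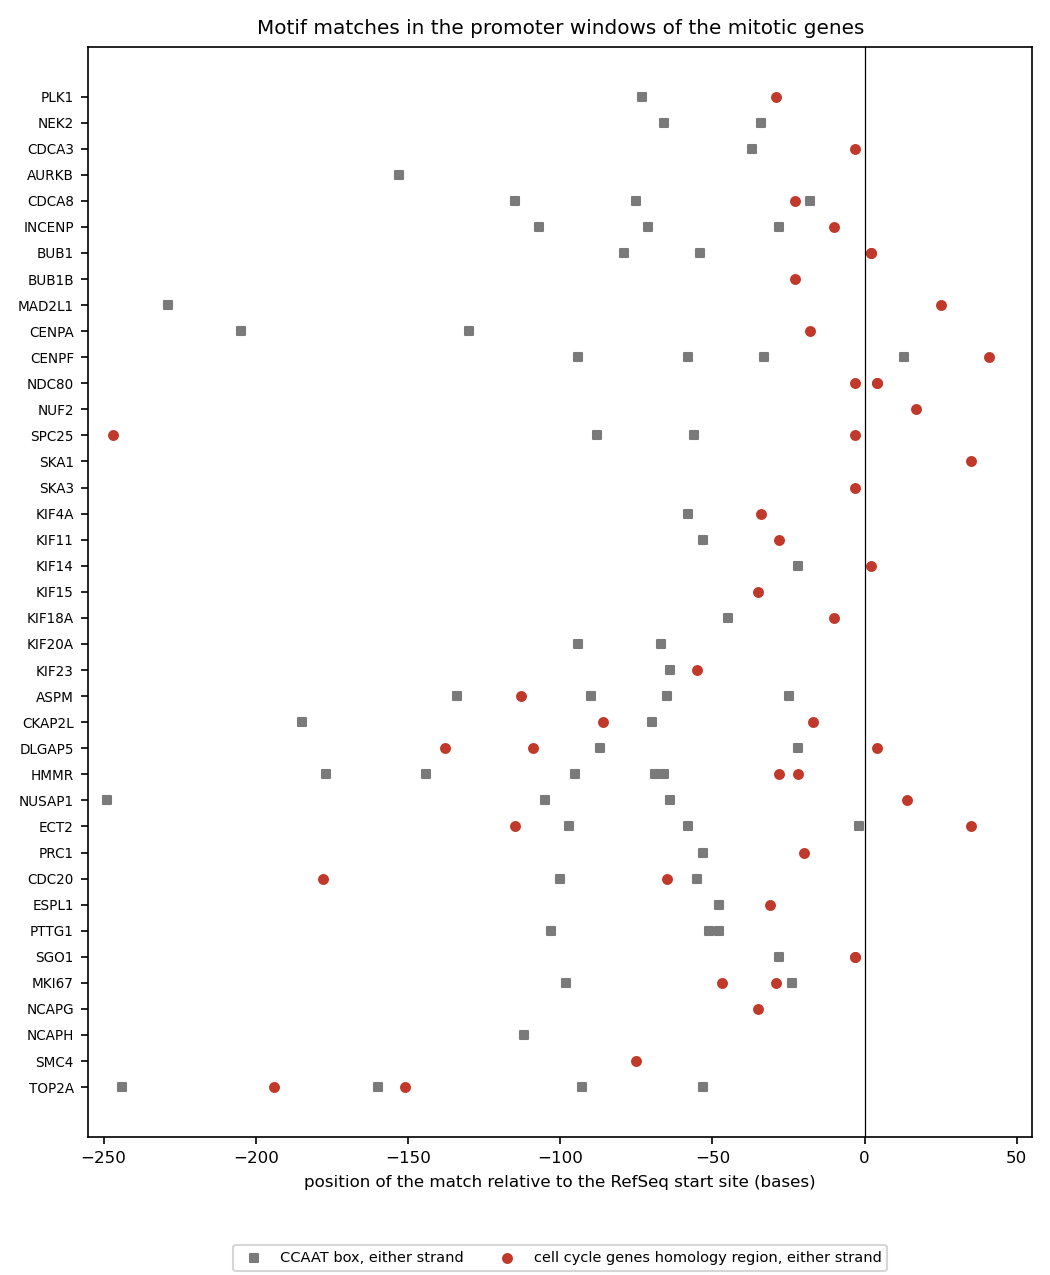
Positions of CCAAT and CHR letters in the member promoters; each row is a gene with at least 1 match, the x axis is distance from the start of transcription in bases (negative is upstream), and each mark is a match on either strand. Of the 43 matched promoters 34 hold a CHR and 31 hold CCAAT, and in 29 members a CHR lies within 50 bases of the start.

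Depth and library quality set the frame for all of these values. The libraries hold 13148881 to 28528757 reads assigned to transcripts, and a level below is a gene's reads summed over its transcripts and divided by a size factor per library. Libraries of the same group differ in how strongly a gene's level follows its GC content: over genes at a mean level of 100 or more, Spearman's rho between a library's deviation and GC content ran from -0.72 to 0.73. The 3 libraries that stand most apart are replicate 2 of DAC-treated ELF-153 at 96 h, replicate 3 of untreated UCSD-AML1 at 144 h and replicate 1 of untreated ELF-153 at 144 h. In these 3 the members of lower GC content (the longest transcript at 35.28 to 42.33% in the 96 h table and 36.65 to 42.48% in the 144 h table) deviated from their group means by a median log2 of 0.74, -0.77 and 0.62. The counts of members that fell are therefore also given without such a library and after removal of each library's GC trend, an alternative chosen after seeing the data. Most of the members whose DAC call changed without such a library are named. Mitochondrial ribosomal RNA took 13.1 to 63.78% of a library's reads, with group means of 50.07% untreated and 62.85% treated in UCSD-AML1 at 96 h, 25.16 and 43.44% in ELF-153 at 96 h, 49.41 and 51.2% in UCSD-AML1 at 144 h, and 24.29 and 46.99% in ELF-153 at 144 h. It moves with treatment in most of the comparisons, and its part in them was not tested beyond the fit with this share as a covariate given with the alternatives.

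**Figure D2:**
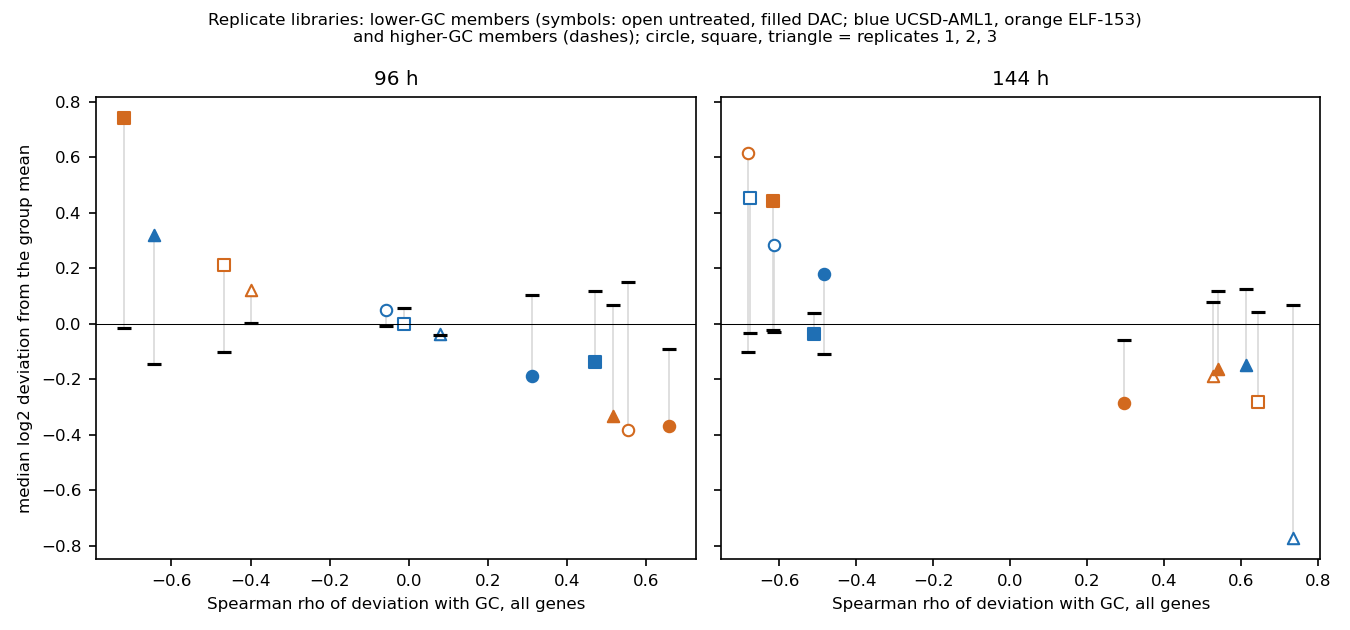
Each position on the x axis is a library, with its Spearman's rho between deviation and GC content over all genes at a mean level of 100 or more; the y axis gives the median log2 deviation of the members from their group mean, for the lower-GC members (symbols) and the higher-GC members (dashes). The lower-GC members run from -0.77 in replicate 3 of untreated UCSD-AML1 at 144 h to 0.74 in replicate 2 of DAC-treated ELF-153 at 96 h, and they lie lower where rho is higher.

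Of 10 progenitor and myeloid markers, 7 or 8 reached a mean level of 10 in each group, while MPO and CSF2RA stayed under 10 throughout. At 96 h that list summed to 7951 to 8499 in UCSD-AML1 without drug and 4298 to 4610 with it, and to 3625 to 4058 and 4130 to 4768 in ELF-153. The 144 h sums were 6012 to 7194 and 3078 to 3278 in UCSD-AML1, and 3805 to 4043 and 3129 to 3722 in ELF-153. The 4 T cell markers summed to 40.99 to 49.28 in UCSD-AML1 without drug and 663 to 1015 with it at 96 h, and to 51.29 to 67.2 and 620.4 to 724.3 at 144 h. In ELF-153 they summed to 146.7 to 160.4 and 389.8 to 448.9 at 96 h, and to 152.8 to 186.8 and 404.9 to 550.1 at 144 h, and the defining CD3E stayed under 10 in all 8 groups. CD3D, CD3G and CD2 all reached 10 in DAC-treated UCSD-AML1 at 96 h and in DAC-treated ELF-153 at both harvests. The 4 epithelial markers summed to 202.6 to 226.4 in untreated and 250.6 to 321.5 in treated UCSD-AML1 at 96 h, and to 213.8 to 223.7 and 225.2 to 300.6 at 144 h. In ELF-153 they summed to 73.75 to 135.5 and 73.26 to 91.97 at 96 h, and to 72.59 to 137.4 and 70.65 to 75.77 at 144 h. The keratins KRT8 and KRT18 reached 10 in every group, while EPCAM and CDH1 were under 10 in every group. The 4 stromal collagen and decorin genes summed to at most 8.195 in untreated and 59.3 in treated libraries. The part of these marker lists in the results below was not tested.

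Nearly the whole set was lower after DAC in UCSD-AML1. At 96 h, 50 members passed the filter on low values (a level of at least 10 in at least 3 libraries), and 47 of them fell and none rose at a Benjamini-Hochberg adjusted p of 0.05 by limma. Over all 17609 genes tested, 20.1% fell and 20% rose. CDC25C and TPX2 did not pass the filter at either harvest, and CENPE and NUF2 did not pass it at 144 h. AURKA and NUF2 at 96 h, and AURKA, BUB1B, ECT2, HMMR and SKA3 at 144 h, passed it through untreated libraries alone. The filter favoured a fall in these members, which stay in the counts and medians. With a filter of 1, 47 of 52 members fell in UCSD-AML1 at 96 h and 47 of 51 at 144 h. In ELF-153 that filter gave 29 of 52 and 32 of 51. With the filter of 10, the median log2 change in UCSD-AML1 at 96 h was -3.07, against -0.03 over all genes. The members ran from -4.79 for the condensin subunit NCAPG to 0.29 for TACC3. The treated and untreated libraries did not overlap, with treated lower, in 48 members (30.3% of all genes). With the members near 0 reads set at their bound or ratio the median was -3.10. The 3 members that were not called are BUB1, RACGAP1 and TACC3. Removal of the GC trend left 43 falls, with a median of -2.75, where 3519 of all genes fell and their median was 0.06. By edgeR with TMM scaling the split over all genes was 4203 higher and 2786 lower in place of 3513 and 3545, and 45 members fell.

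At 144 h, 45 of 48 tested members fell in UCSD-AML1 and none rose, with a median of -3.07, where 26.8% of 17180 genes fell, 20.1% rose and the median of all genes was -0.14. The treated libraries lay below all untreated ones in 45 members (31.8% of all genes). AURKA, BUB1 and TACC3 were not called. Without the outlying replicate 3 of the untreated group 45 of the 47 members then tested fell. BUB1 was now among them, so the members that fell are not the same as with all libraries. With the GC trend removed 42 fell, where 4134 of all genes fell and their median was 0.06. Scaling by TMM moved the median of all genes from -0.14 to 0.13 and the split over all genes from 3450 higher and 4609 lower to 4551 higher and 3410 lower, while 44 members fell.

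In ELF-153 the fall was seen in fewer members. At 96 h, 29 of 50 fell and none rose, where 12.9% of all genes fell and 20.7% rose, with a median of -1.20 against 0.17 over all genes. The groups did not overlap, with treated lower, in 30 members (18% of all genes). Without replicate 2 of the treated group 33 fell: NDC80, NUF2, NCAPG, TOP2A, KIF14 and KIF23 gained a call, and BIRC5 (adjusted p = 0.0958) and CDCA8 (adjusted p = 0.0529) lost it. With the GC trend removed 41 fell with a median of -1.44. In that fit 2881 of all genes fell in place of 2271, and their median was -0.0002. At 144 h, 34 of 48 fell and none rose, where 18.2% of all genes fell and 20.8% rose, with a median of -1.43 against 0.11. The treated libraries lay below the untreated ones in 37 members (24% of all genes). Without replicate 1 of the untreated group 28 fell, with the calls of BIRC5, NCAPG, ECT2, DLGAP5, SPC25 and MAD2L1 lost (adjusted p from 0.056 to 0.0938), and 41 fell with the GC trend removed. With that trend removed 3655 of all genes fell in place of 3124, and their median was 0.02. Of the members called lower, 4 of 47 in UCSD-AML1 and 5 of 29 in ELF-153 at 96 h, and 2 of 45 and 9 of 34 at 144 h, lost the call when some single library was left out.

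**Figure D3:**
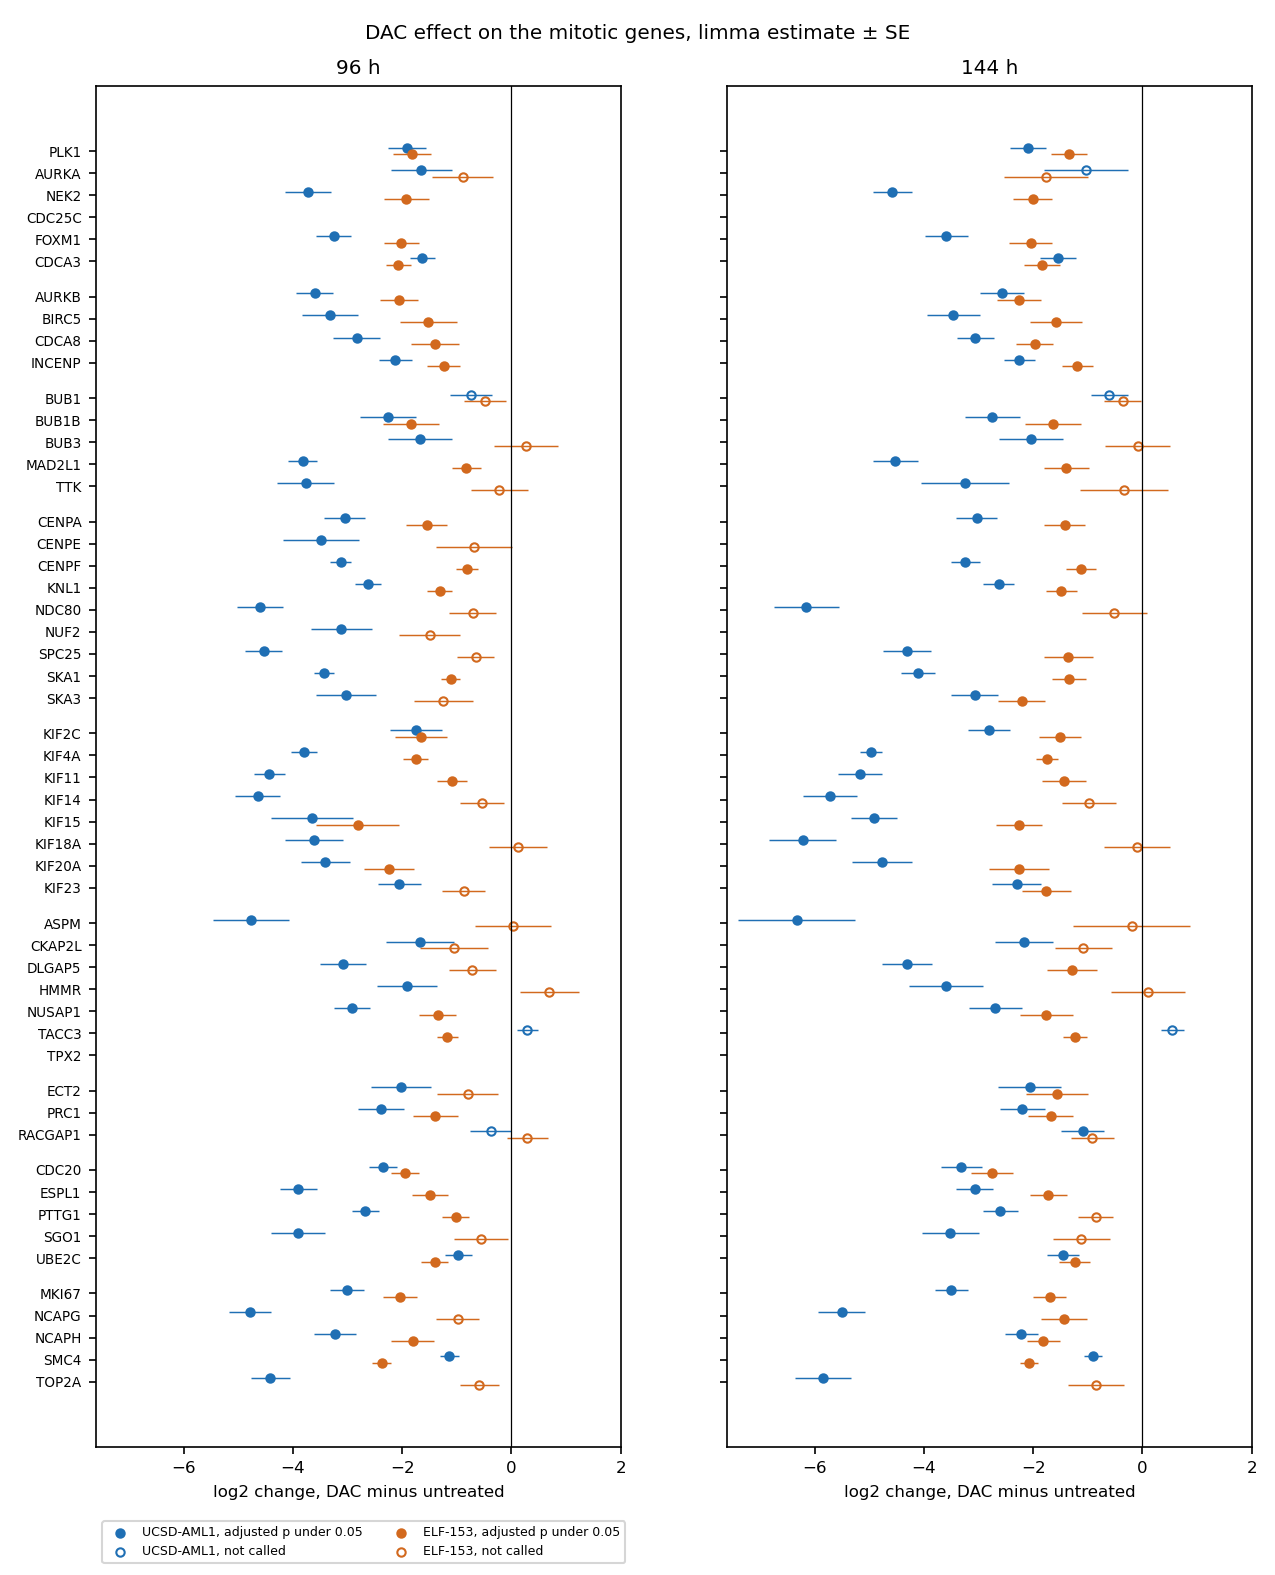
Log2 change with DAC (x axis, treated minus untreated; bars are the standard error from limma) for every tested member, grouped by role, with a panel for each harvest and a colour for each line; filled points passed an adjusted p of 0.05. In UCSD-AML1 the medians are -3.07 at both harvests, in ELF-153 -1.20 at 96 h and -1.43 at 144 h, and TACC3 alone has a UCSD-AML1 change above 0.

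Among the mitotic kinases and regulators, all 5 tested members fell in UCSD-AML1 at 96 h (median log2 change -1.91) and 4 of 5 at 144 h (-2.10). In ELF-153, 4 of 5 fell at each harvest, with medians of -1.92 and -1.84, so in this group the medians of the lines lay close together. FOXM1, the transcription factor that activates late cell cycle genes, stood at 58.7, 62.3 and 42.6 without and 7.87, 4.50 and 2.91 with DAC in UCSD-AML1 at 96 h. In ELF-153 it stood at 203.9, 139.3 and 152.2 untreated and 41.7, 32.3 and 46.0 treated. No treated library of either line reached an untreated one. FOXM1 fell by 3.25 ± 0.32 (SE) on the log2 scale, or 9.52-fold, in UCSD-AML1 (adjusted p = 4.27e-06) and by 2.02 ± 0.32, or 4.04-fold, in ELF-153 (adjusted p = 0.000299). At 144 h the falls were 12.1-fold and 4.12-fold.

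PLK1, the polo-like kinase of mitotic entry and spindle assembly, went from 52.4, 33 and 38.6 to 11.8, 14.6 and 5.83 in UCSD-AML1 at 96 h. In ELF-153 it went from 166.9, 111.7 and 136.7 to 27.5, 37.5 and 52.8. The untreated levels of ELF-153 lay above those of UCSD-AML1, yet the falls were of similar size: 3.75-fold (log2 -1.91 ± 0.35, adjusted p = 0.000737) and 3.53-fold (-1.82 ± 0.35, adjusted p = 0.00126). At 144 h PLK1 fell 4.28-fold and 2.53-fold. CDCA3, a trigger of WEE1 degradation at mitotic entry, stood at 134.4, 101.4 and 123.9 without and 24.6, 24.4 and 35.2 with DAC in ELF-153 at 96 h. This was among the 4 largest falls in that comparison, 4.19-fold (log2 -2.07 ± 0.23, adjusted p = 1.33e-05), while in UCSD-AML1 CDCA3 fell by 1.63. NEK2, a centrosome kinase, fell 13.2-fold in UCSD-AML1 at 96 h and 23.9-fold at 144 h, with log2 changes of -1.92 and -2.01 in ELF-153.

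AURKA, the centrosomal Aurora kinase, had few reads. It fell in UCSD-AML1 at 96 h (3.15, 7.33 and 10.3 untreated, 0, 2.25 and 2.91 treated, log2 -1.65 ± 0.56, adjusted p = 0.0315). AURKA had 13 untreated and 3 treated reads at 144 h, a ratio of 4.63 (95% counting interval 1.27 to 25.4), and it was not called there or in ELF-153. CDC25C, the phosphatase that activates CDK1, did not pass the filter in either table. It had 25 untreated and 1 treated read in UCSD-AML1 at 96 h, a ratio of 22.2 (3.63 to 910), and 27 and 2 at 144 h, a ratio of 14.4 (3.63 to 125). In ELF-153 it had 9 untreated and 11 treated reads at 96 h, and 13 and 2 at 144 h, a ratio of 6.37 (1.44 to 58.1). Such intervals cover counting error only.

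The chromosomal passenger complex, which corrects wrong attachments of chromosomes to the spindle, fell whole: 4 of 4 members in each line at each harvest, with medians of -3.08 and -2.82 in UCSD-AML1 and -1.46 and -1.78 in ELF-153. Its kinase AURKB stood at 78.7, 89.8 and 93.0 untreated and 8.85, 5.62 and 4.86 treated in UCSD-AML1 at 96 h. ELF-153 had 154.6, 86.1 and 105.7 untreated and 35.0, 15.7 and 32.3 treated. The groups are well apart in each line, with falls of 12.1-fold (log2 -3.60 ± 0.34) and 4.16-fold (-2.06 ± 0.34, adjusted p = 0.000417). At 144 h AURKB went from 100.9, 156.3 and 170.8 to 26.5, 22.02 and 38.4 in ELF-153, 4.80-fold lower and among its 4 largest falls, and fell 5.96-fold in UCSD-AML1.

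BIRC5 (survivin), the passenger subunit that docks the complex on centromeres, had 57 untreated and 2 treated reads in UCSD-AML1 at 96 h, a ratio of 25.3 (6.68 to 214). At 144 h no read was left in the 3 treated libraries, which against a floor of 3 reads for the group is at least 12.1-fold lower. In ELF-153 BIRC5 fell by 1.52 ± 0.52 (adjusted p = 0.0364) and 1.58 on the log2 scale, calls that were lost in 4 and 3 of the 6 fits that left out a library. CDCA8 (borealin) fell by 2.83 and 3.06 in UCSD-AML1 and by 1.39 and 1.97 in ELF-153, the call at 96 h being lost in 5 of 6 such fits. INCENP, the scaffold, fell by 2.12, 2.25, 1.24 and 1.19 in the same order.

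The spindle checkpoint holds anaphase until every kinetochore is attached. In UCSD-AML1, 4 of its 5 members fell at each harvest (medians -2.26 and -2.75), and in ELF-153, 2 of 5 (medians -0.48 and -0.36). MAD2L1, the checkpoint protein that binds CDC20, stood at 700.5, 555.4 and 523.4 untreated and 41.3, 37.1 and 44.7 treated in UCSD-AML1 at 96 h. In ELF-153 it stood at 209.5, 401.6 and 329.9 untreated and 138.3, 245.9 and 146.8 treated, and these groups overlap. MAD2L1 fell 14.1-fold in UCSD-AML1 (log2 -3.81 ± 0.27) and by 0.82 ± 0.27 in ELF-153 (adjusted p = 0.0289), a call lost in 4 of 6 fits without a library.

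BUB1B (BubR1), which holds the anaphase-promoting complex in check, went from 18.9, 23.8 and 14.2 to 2.95, 3.37 and 2.91 in UCSD-AML1 at 96 h, 4.80-fold lower (log2 -2.26 ± 0.51, adjusted p = 0.00314). In ELF-153 it went from 29.1, 20.5 and 25.5 to 7.58, 14.0 and 1.96 (log2 -1.83 ± 0.51, adjusted p = 0.0135). All treated libraries were below all untreated ones in each line. TTK (MPS1), the kinase at the head of the checkpoint, had 69 untreated and 3 treated reads in UCSD-AML1 at 96 h, a ratio of 20.4 (6.69 to 101), and 47 and 1 at 144 h, a ratio of 50.3 (8.59 to 2027). In ELF-153 it stood at 12.3, 15.4 and 10.9 untreated and 7.58, 13.1 and 12.7 treated at 96 h, with overlapping groups and a log2 change of -0.22 (adjusted p = 0.783).

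BUB1, a kinase that recruits the other checkpoint proteins, was not called in any of the 4 DAC comparisons with all libraries. It stood at 169.9, 169.6 and 152.1 untreated and 96.4, 82.1 and 118.5 treated in UCSD-AML1 at 96 h. The groups do not overlap, but the log2 change of -0.74 ± 0.38 did not pass (adjusted p = 0.139). The 144 h change was -0.61 (adjusted p = 0.162), and without the outlying untreated replicate 3 it was called, at -1.02 (adjusted p = 0.0122), while with the GC trend removed it was 0.09 (adjusted p = 0.779). The BUB1 changes in ELF-153 were -0.48 and -0.36, and both were called with the GC trend removed (-0.90, adjusted p = 0.0196, and -0.67, adjusted p = 0.0437).

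BUB3, the checkpoint subunit that binds phosphorylated KNL1, followed single libraries. In UCSD-AML1 at 96 h it stood at 1110, 1036 and 933.4 untreated and 191.8, 209.1 and 823.6 treated, so replicate 3 of the treated group lay close to the untreated libraries. The fall of 1.67 ± 0.58 (adjusted p = 0.0337) was lost in 5 of 6 fits without a library and with the GC trend removed (-1.24, adjusted p = 0.0611). In ELF-153 at 96 h BUB3 stood at 146.7, 140.3 and 131.2 untreated and 91.9, 500.6 and 102.7 treated; only replicate 2, the library that stands apart, was above the untreated ones (log2 0.27, adjusted p = 0.753). Without it the change was -0.52 (adjusted p = 0.462). At 144 h BUB3 fell by 2.04 in UCSD-AML1 (adjusted p = 0.0136) and by 2.84 without the outlying untreated replicate 3, while its change in ELF-153 was -0.09.

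All 9 kinetochore and centromere members fell in UCSD-AML1 at 96 h (median -3.12), and all 7 that were tested at 144 h (-3.24). In ELF-153, 4 of 9 and 6 of 7 fell (medians -1.11 and -1.35). CENPA, the histone H3 variant that marks centromeres, went from 27.3, 34.8 and 14.98 to 1.97, 2.25 and 1.94 in UCSD-AML1 at 96 h and from 77.3, 54.3 and 80.2 to 33.2, 17.4 and 21.5 in ELF-153. Treated libraries were lower without overlap in each line, by 8.29-fold (log2 -3.05 ± 0.38, adjusted p = 2.75e-05) and 2.92-fold (-1.54 ± 0.38, adjusted p = 0.00608). CENPF, a large protein of the outer kinetochore, went from 10960, 11100 and 10650 to 1221, 1195 and 1342 in UCSD-AML1 and from 6221, 9336 and 9178 to 3864, 6164 and 4157 in ELF-153. Its falls were 8.71-fold (log2 -3.12 ± 0.20, adjusted p = 7.82e-08) and 1.75-fold (-0.81 ± 0.20, adjusted p = 0.00597).

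NDC80, the microtubule-binding arm of the kinetochore, was among the 4 largest falls in UCSD-AML1 at each harvest. It stood at 1841, 1712 and 1706 untreated and 66.9, 60.7 and 89.4 treated at 96 h, and at 1633, 1703 and 628.6 untreated and 15.1, 18.4 and 14.6 treated at 144 h. These are falls of 24.2-fold (log2 -4.60 ± 0.42, adjusted p = 2.26e-06) and 71.1-fold (-6.15 ± 0.59). In ELF-153 NDC80 stood at 259.9, 723.2 and 637.9 untreated and 174.3, 636.6 and 245.6 treated at 96 h. There the groups overlap and the change of -0.71 ± 0.42 was not called (adjusted p = 0.215). It was called with the GC trend removed (-1.25, adjusted p = 0.00172) and without the outlying treated replicate 2 (-1.25, adjusted p = 0.0204). At 144 h ELF-153 stood at 1180, 223.9 and 271.2 untreated and 187.4, 534 and 246 treated (-0.51, adjusted p = 0.525), and at 0.24 without the outlying untreated replicate 1.

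SPC25, a partner of NDC80 in the same complex, fell 23.1-fold in UCSD-AML1 at 96 h, and its change in ELF-153 was -0.65, not called. NUF2, the other arm of the complex, had 43 untreated and 2 treated reads in UCSD-AML1 at 96 h, a ratio of 19.1 (4.96 to 162), was not called in ELF-153 (-1.50, adjusted p = 0.0531) and did not pass the filter at 144 h. Without the outlying treated replicate 2 the NUF2 change in ELF-153 was called (-2.12, adjusted p = 0.0112), as it was with the GC trend removed (-2.10, adjusted p = 0.00635). KNL1, the platform for checkpoint proteins, fell by 2.62 and 2.63 in UCSD-AML1 and by 1.31 and 1.49 in ELF-153. The SKA complex helps kinetochores to track shrinking microtubules. Its subunit SKA1 fell by 3.42 and 4.11 in UCSD-AML1 and by 1.11 and 1.34 in ELF-153. SKA3 had 44 untreated and 2 treated reads in UCSD-AML1 at 96 h, a ratio of 19.5 (5.09 to 166), and 28 and 1 at 144 h. CENPE, a kinetochore motor, fell by 3.49 in UCSD-AML1 at 96 h. At 144 h, where it did not pass the filter, it had 45 untreated reads and none in the treated libraries, which is at least 16.04-fold lower.

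The kinesin motors, which slide, push and shorten spindle microtubules, fell in UCSD-AML1 in 8 of 8 cases at each harvest, with medians of -3.63 and -4.94. In ELF-153, 5 of 8 and 6 of 8 fell, with medians of -1.37 and -1.63. KIF11 (Eg5), the motor that separates the spindle poles, stood at 5425, 5271 and 5034 untreated and 202.6, 214.7 and 326.3 treated in UCSD-AML1 at 96 h. ELF-153 had 1589, 2416 and 2022 untreated and 700.9, 1568 and 740.6 treated. The treated libraries were lower in each line, but by 21.6-fold in UCSD-AML1 (log2 -4.43 ± 0.28, adjusted p = 8.25e-08) and 2.12-fold in ELF-153 (-1.08 ± 0.28, adjusted p = 0.00911). At 144 h the falls were 35.9-fold and 2.71-fold, and the ELF-153 call was lost in 2 of 6 fits without a library.

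KIF4A, the chromosome-bound motor, was among the members with a clear fall in each line. It went from 433.1, 431.7 and 464.3 to 39.3, 33.7 and 22.3 in UCSD-AML1 and from 675.4, 1024 and 853.9 to 229.2, 218.9 and 308.2 in ELF-153 at 96 h. The falls were 13.9-fold (adjusted p = 5.99e-08) and 3.36-fold (adjusted p = 5.56e-05). KIF20A, which brings the passenger complex to the midzone, stood at 126.6, 95.3 and 82.0 untreated and 15.2, 20.1 and 27.4 treated in ELF-153 at 96 h, a 4.73-fold fall (log2 -2.24 ± 0.45, adjusted p = 0.00175). Its 144 h levels were 91.5, 99.5 and 102.5 against 14.6, 20.2 and 25.3 (4.80-fold, adjusted p = 0.00574). Neither pair of groups overlaps, and both falls are among the 4 largest of ELF-153 at their harvest.

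KIF15, which backs up KIF11, had the largest fitted fall of ELF-153 at 96 h, from 49.3, 96.3 and 94.8 to 23.7, 17.4 and 1.96 (log2 -2.82 ± 0.75, adjusted p = 0.0108). Its treated replicate 3 lay well below the other 2. In UCSD-AML1 KIF15 went from 26.2, 75.2 and 27.6 to 0.984, 6.74 and 0.971 at 96 h, and had 164 untreated and 3 treated reads at 144 h, a ratio of 58.5 (19.7 to 286).

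KIF14 and KIF18A fell steeply in UCSD-AML1 and were not called in ELF-153. KIF14, a motor of the midbody, stood at 3188, 3332 and 3137 untreated and 83.6, 124.8 and 200.1 treated in UCSD-AML1 at 96 h, a 24.98-fold fall (log2 -4.64 ± 0.41, adjusted p = 1.48e-06). ELF-153 had 796.4, 1607 and 1320 untreated and 483, 1708 and 666.3 treated (log2 -0.54, adjusted p = 0.332), and without the outlying treated replicate 2 it passed (-1.07, adjusted p = 0.0338). KIF18A, which dampens chromosome movements at the metaphase plate, went from 696.8, 823.5 and 256.5 to 6.72, 9.62 and 3.38 in UCSD-AML1 at 144 h, 74.4-fold lower (log2 -6.22 ± 0.61, adjusted p = 8.79e-06). In ELF-153 its 3 untreated libraries at 96 h were at 128.8, 507.1 and 315.3 and its treated ones at 170.5, 693.3 and 223.1, an overlap with no common direction (log2 0.12 ± 0.53, adjusted p = 0.888). Its ELF-153 change at 144 h was -0.10. The other motors, KIF2C, which depolymerises microtubules, and KIF23, the centralspindlin motor, fell in UCSD-AML1 by 1.75 and 2.05 at 96 h, with changes of -1.65 and -0.87 in ELF-153, of which that of KIF23 was not called. Without the outlying treated replicate 2 KIF23 passed in ELF-153 (-1.28, adjusted p = 0.0261), as it did with the GC trend removed (-1.30, adjusted p = 0.00902).

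**Figure D4:**
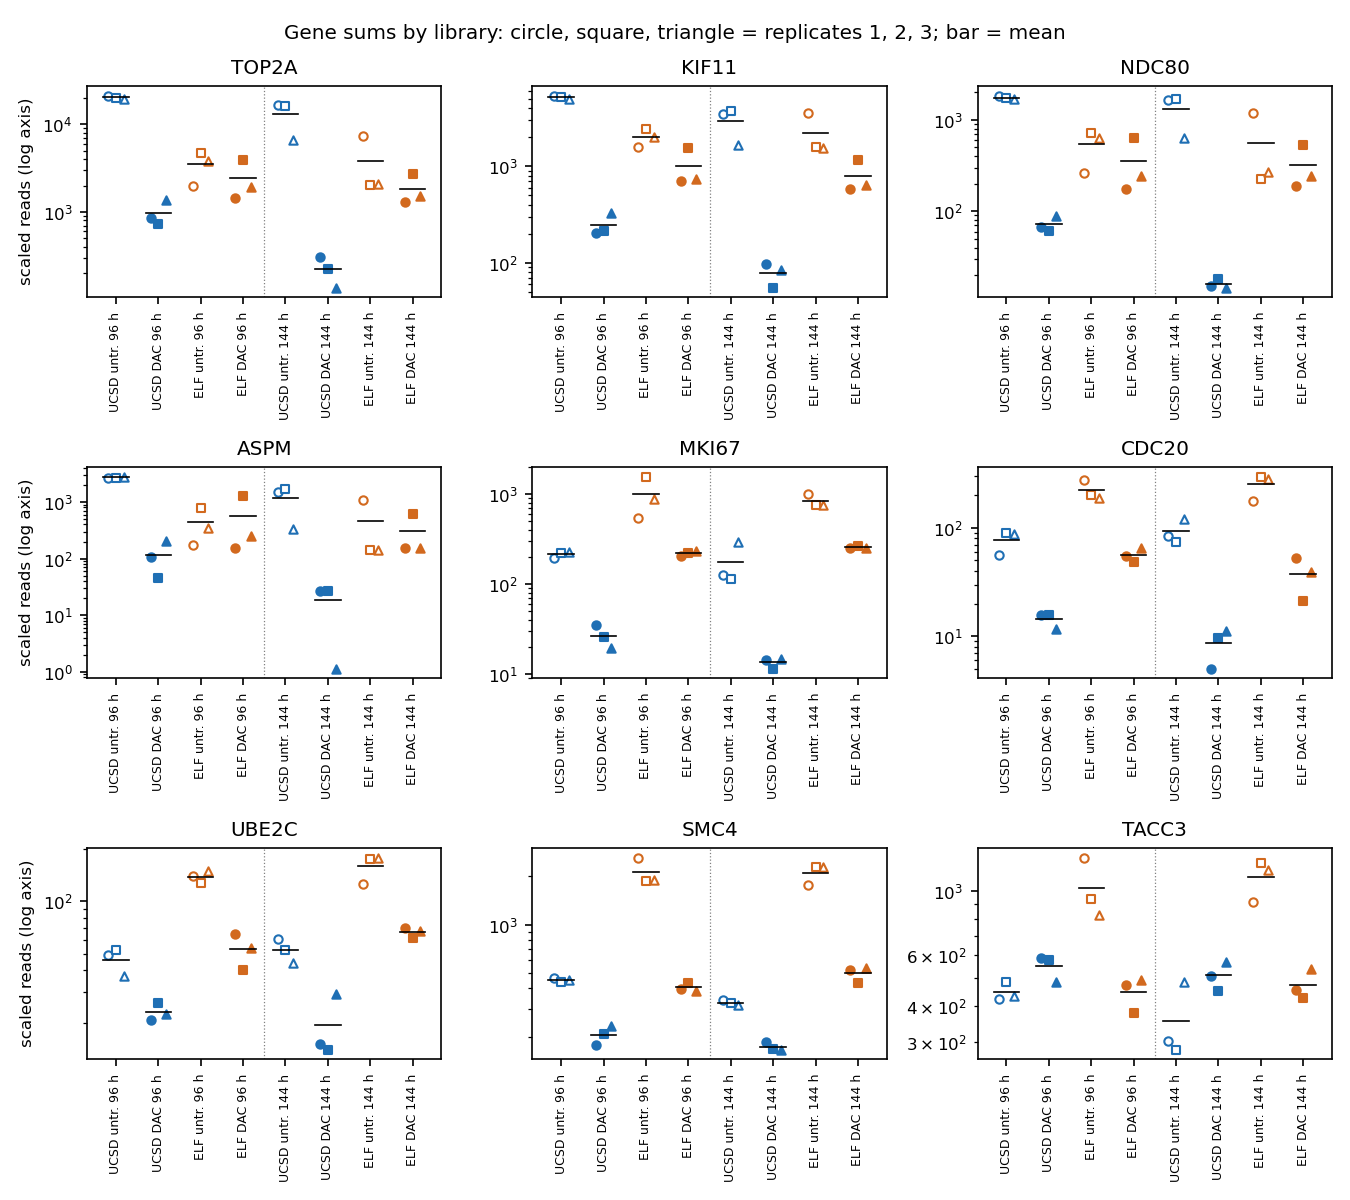
Levels per library (y axis, size-factor-scaled reads summed over transcripts, log scale) of 9 members, with untreated and DAC-treated libraries of each line at each harvest side by side; each point is a library. TOP2A, KIF11, NDC80 and ASPM lie far lower in treated than in untreated UCSD-AML1 while their ELF-153 groups lie closer together, and TACC3 and SMC4 show the reverse order, with falls of 2.25-fold and 5.17-fold in ELF-153 at 96 h.

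The spindle microtubule proteins were split. In UCSD-AML1, 5 of 6 tested members fell at each harvest (medians -2.41 and -3.15), and in ELF-153, 2 of 6 at 96 h and 3 of 6 at 144 h (-0.89 and -1.16). ASPM, which focuses microtubules at the spindle poles, stood at 2677, 2711 and 2816 untreated and 106.2, 46.1 and 200.1 treated in UCSD-AML1 at 96 h, and at 1476, 1691 and 332.8 against 26.9, 26.2 and 1.13 at 144 h. It fell 27.2-fold (log2 -4.77 ± 0.70, adjusted p = 0.000124) and 80.2-fold (-6.33 ± 1.07, adjusted p = 0.000525). In ELF-153 ASPM stood at 171.4, 794.9 and 341.7 untreated and 152.5, 1270 and 255.4 treated at 96 h, and at 1090, 143.3 and 142 against 155.4, 620.3 and 153.7 at 144 h. At 96 h replicate 2 of each ELF-153 group was the highest by far, and at 144 h untreated replicate 1 and treated replicate 2 were. Of these, treated replicate 2 at 96 h and untreated replicate 1 at 144 h are among the 3 libraries that stand most apart. The ELF-153 changes of 0.03 ± 0.70 and -0.19 were not called (adjusted p = 0.984 and 0.907), and they were -0.86 and 0.78 without those 2 libraries, each in its own table.

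TACC3, which clathrin and Aurora A anchor on spindle microtubules, was the exception of UCSD-AML1. It stood at 423.6, 482.1 and 433.6 untreated and 587.2, 575.5 and 483.7 treated at 96 h, so every treated library was above every untreated one. The change of 0.29 ± 0.19 was not called (adjusted p = 0.234). The 144 h levels were 303.3, 282.8 and 483.1 against 509.1, 452.2 and 567.4, with only untreated replicate 3, which stands apart, in the treated range (0.55 ± 0.22, adjusted p = 0.0511). It was called higher with the replicate number as a block (adjusted p = 0.0344) and without that library (0.79, adjusted p = 0.00428), and not with the GC trend removed (0.25, adjusted p = 0.133). In ELF-153 TACC3 fell from 1300, 936.3 and 825.6 to 470.7, 379.4 and 490.2 at 96 h and from 913.9, 1250 and 1181 to 452.5, 427.6 and 534.8 at 144 h. These falls, 2.25-fold (adjusted p = 0.000317) and 2.35-fold (adjusted p = 0.000568), had no overlap.

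HMMR, a spindle assembly factor also known as a hyaluronan receptor, fell in UCSD-AML1 by 1.91 at 96 h and 3.59 at 144 h. In ELF-153 it had 5 untreated and 13 treated reads at 96 h, and its fitted changes of 0.70 and 0.10 were not called. NUSAP1, which bundles microtubules, fell by 2.92 and 2.70 in UCSD-AML1 and by 1.35 and 1.76 in ELF-153. DLGAP5, a spindle protein carried by Aurora A, fell by 3.08 in UCSD-AML1 at 96 h. At 144 h it had 63 untreated reads and none in the treated libraries, at least 22.5-fold lower, and in ELF-153 it was called at 144 h only (-1.28, adjusted p = 0.0406, lost in 5 of 6 fits without a library). CKAP2L fell in UCSD-AML1 (-1.67 and -2.17), the call at 96 h being lost in 5 of 6 fits without a library and with the GC trend removed (adjusted p = 0.095), and was not called in ELF-153. TPX2, the activator of Aurora A, had almost no reads, with 6 untreated and 1 treated read in UCSD-AML1 at 96 h and 6 and 2 in ELF-153, ratios of 5.32 (0.645 to 245) and 3.26 (0.583 to 33.0) that include 1. At 144 h it had 1 and 0 reads in UCSD-AML1 and 8 and 2 in ELF-153.

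Of the 3 cytokinesis members, 2 fell at 96 h and 3 at 144 h in UCSD-AML1 (medians -2.03 and -2.06), and 1 and 2 in ELF-153 (-0.80 and -1.56). PRC1, which bundles the midzone microtubules, went from 44.0, 36.7 and 34.7 to 7.87, 11.2 and 2.91 in UCSD-AML1 at 96 h, a 5.22-fold fall (adjusted p = 0.000511), and from 70.6, 64.5 and 66.5 to 16.1, 41.0 and 23.5 in ELF-153. The ELF-153 fall of 2.62-fold (adjusted p = 0.0201) did not overlap but lost its call in 2 of 6 fits without a library. RACGAP1, the GTPase-activating part of centralspindlin, stood at 40.9, 36.7 and 29.96 untreated and 27.5, 27.0 and 27.2 treated in UCSD-AML1 at 96 h. All treated libraries were just below the untreated ones, and the change of -0.37 was not called (adjusted p = 0.458). At 144 h RACGAP1 was called in UCSD-AML1 (-1.09, adjusted p = 0.0366), but not with the replicate number as a block (adjusted p = 0.0564) or in 5 of 6 fits without a library. ECT2, the exchange factor that starts the contractile ring, fell by 2.03 in UCSD-AML1 at 96 h and had 24 untreated and 3 treated reads at 144 h, a ratio of 8.56 (2.60 to 44.4). In ELF-153 ECT2 was called at 144 h (-1.56, adjusted p = 0.0456), a call lost in 5 of 6 fits without a library.

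The anaphase and cohesion members fell in 5 of 5 cases in UCSD-AML1 at each harvest (medians -2.68 and -3.07), and in 4 of 5 and 3 of 5 in ELF-153 (-1.40 and -1.24). CDC20, the activator of the anaphase-promoting complex, went from 56.6, 89.8 and 87.5 to 15.7, 15.7 and 11.7 in UCSD-AML1 at 96 h and from 277.8, 199.8 and 187.7 to 54.9, 48.8 and 64.6 in ELF-153. The falls of 5.07-fold (log2 -2.34 ± 0.26, adjusted p = 1.01e-05) and 3.87-fold (-1.95 ± 0.26) lay within about an SE of each other. At 144 h CDC20 had the largest fall of any member in ELF-153, from 176.4, 296.1 and 279.7 to 53.0, 21.1 and 39.5, 6.74-fold (log2 -2.75 ± 0.38, adjusted p = 8.39e-05), and fell 9.94-fold in UCSD-AML1.

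PTTG1 (securin), the inhibitor of separase, stood at 158.3, 161.3 and 165.5 untreated and 20.7, 29.2 and 24.3 treated in UCSD-AML1 at 96 h, and at 50.4, 65.6 and 79.3 against 27.5, 38.4 and 28.4 in ELF-153. It fell in each line without overlap, by 6.39-fold (log2 -2.68 ± 0.25, adjusted p = 2.15e-06) and 2.03-fold (-1.02 ± 0.25, adjusted p = 0.0057). ESPL1 (separase) fell by 3.90 and 3.07 in UCSD-AML1 and by 1.48 and 1.72 in ELF-153. SGO1 (shugoshin), the guardian of centromeric cohesion, had 86 untreated and 3 treated reads in UCSD-AML1 at 96 h, a ratio of 25.4 (8.41 to 126), and was not called in ELF-153 (-0.55 and -1.12). UBE2C, the ubiquitin-conjugating enzyme of the anaphase-promoting complex, had the smallest called fall of UCSD-AML1 at 96 h, from 49.3, 52.2 and 37.1 to 20.7, 25.9 and 22.3 (1.96-fold, log2 -0.97 ± 0.24). In ELF-153 UBE2C fell from 140, 127 and 149.5 to 64.4, 40.1 and 53.8, by 1.40 on the log2 scale.

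The 5 chromosome structure members fell in UCSD-AML1 at each harvest (medians -3.23 and -3.50), and 3 of 5 and 4 of 5 in ELF-153 (-1.81 and -1.70). TOP2A, the topoisomerase that untangles sister chromatids, stood at 21200, 19920 and 19540 untreated and 848.9, 734 and 1365 treated in UCSD-AML1 at 96 h, a 21.3-fold fall (log2 -4.41 ± 0.36, adjusted p = 6.99e-07). TOP2A went from 16770, 16150 and 6667 to 304.1, 223.1 and 137.4 at 144 h, 57.6-fold lower (-5.85 ± 0.52). In ELF-153 TOP2A stood at 1989, 4720 and 3844 untreated and 1439, 3863 and 1930 treated at 96 h, with overlap and no call (log2 -0.58 ± 0.36, adjusted p = 0.229). It was called with the GC trend removed (-1.17, adjusted p = 0.000142) and without the outlying treated replicate 2 (-0.99, adjusted p = 0.0417). At 144 h the ELF-153 change was -0.85 (adjusted p = 0.218), or -1.27 with the GC trend removed (adjusted p = 0.00255).

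NCAPG, a condensin I subunit, had the largest fall of UCSD-AML1 at 96 h, from 700.5, 685.6 and 674 to 20.7, 15.7 and 41.8 (27.6-fold, log2 -4.79 ± 0.39, adjusted p = 6.6e-07). In ELF-153 it stood at 208.3, 180.3 and 236 untreated and 79.6, 210.2 and 67.5 treated, with only the outlying replicate 2 in the untreated range (-0.98, adjusted p = 0.0651). Without that library it passed (-1.49, adjusted p = 0.00382). NCAPH, the kleisin of the same complex, fell by 3.23 and 2.22 in UCSD-AML1 and by 1.81 at each harvest in ELF-153.

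MKI67, which coats mitotic chromosomes and is the antigen of the Ki-67 stain, went from 196.1, 220.9 and 229.4 to 34.4, 25.9 and 19.4 in UCSD-AML1 at 96 h and from 541, 1571 and 877.6 to 205.5, 222.4 and 232.9 in ELF-153. The treated libraries of each line lay close together and far below the untreated ones, 8.03-fold (log2 -3.01 ± 0.31, adjusted p = 6.14e-06) and 4.11-fold (-2.04 ± 0.31, adjusted p = 0.000201). The 144 h falls were 11.3-fold and 3.25-fold.

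SMC4, the core ATPase of both condensins, fell more in ELF-153 than in UCSD-AML1. It stood at 466.6, 436.3 and 450.9 untreated and 177, 207.9 and 232.1 treated in UCSD-AML1 at 96 h, and at 2608, 1866 and 1905 against 397.8, 434.3 and 385.5 in ELF-153. These are falls of 2.2-fold (log2 -1.14 ± 0.17, adjusted p = 0.000161) and 5.17-fold (-2.37 ± 0.17, adjusted p = 1.99e-07), and the treated ELF-153 libraries reached the level of untreated UCSD-AML1. At 144 h SMC4 fell 1.87-fold (-0.90 ± 0.16, adjusted p = 0.000663) and 4.21-fold. After removal of the GC trend the UCSD-AML1 changes were -0.54 (adjusted p = 0.101) and 0.04 (adjusted p = 0.936), so the fall in UCSD-AML1 was no longer called, while that in ELF-153 at 96 h was -3.03.

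Before treatment the lines differed in both directions. At 96 h, 17 members were higher in untreated ELF-153 than in untreated UCSD-AML1 and 13 were lower, where 22.7% of all genes were higher and 35.2% lower (median of the members 0.33). The members with the largest excess in ELF-153 were SMC4 (log2 2.22 ± 0.17, 4.65-fold, adjusted p = 1.35e-07), MKI67 (2.07 ± 0.31, 4.204-fold) and PLK1 (1.73 ± 0.35, 3.31-fold). The members with the largest deficit were HMMR (log2 -3.44 ± 0.55, 10.9-fold lower, adjusted p = 0.00012), ASPM (-2.92 ± 0.70, 7.58-fold lower) and BUB3 (-2.87 ± 0.58, 7.31-fold lower). These differences move with GC content: the median was -0.72 over the 25 lower-GC members and 0.92 over the 25 higher-GC ones. After removal of the GC trend 24 were higher and 6 lower, HMMR was at -1.98, ASPM at -1.50 and BUB3 at -1.82. Over all genes 4665 were higher and 4450 lower in that fit. TMM scaling moved the median of all genes from -0.23 to 0.01 and their split from 4003 higher and 6192 lower to 5135 and 5091, with 21 members higher and 12 lower. At 144 h, 25 members were higher and 5 lower (28.7% and 23.1% of all genes; median 1.05), or 26 and 4 with the GC trend removed, led by SMC4 (2.68 ± 0.16, 6.40-fold), MKI67 (2.37 ± 0.30, 5.15-fold) and KNL1 (2.08 ± 0.28, 4.22-fold). Over all genes 4431 were higher and 4379 lower with the trend removed. The number of higher members ran from 20 to 23 when single libraries were left out. Of the 30 called members, 10 lost the call without some library. The lower members were led by HMMR (-2.35 ± 0.68, adjusted p = 0.0117), TOP2A (-1.96 ± 0.52, adjusted p = 0.00749) and BUB3 (-1.91 ± 0.59, adjusted p = 0.017), a call that was lost for BUB3 in 4 of 6 fits without a library. HMMR was, after removal of the GC trend, no longer called (-1.59, adjusted p = 0.0786). The number of lower members ran from 1 to 7 when single libraries were left out, with 1 without replicate 1 or replicate 2 of untreated UCSD-AML1 and 2 without replicate 2 or replicate 3 of untreated ELF-153. It was 7 without replicate 1 of untreated ELF-153, a library that stands apart, where ASPM and KIF18A were also called lower. The mitochondrial ribosomal RNA share differs between the untreated lines. With it as a covariate 5 members were higher and 2 lower at 96 h and 16 and 0 at 144 h. Over all genes that fit called 1875 higher and 2618 lower at 96 h, in place of 4003 and 6192, and 3510 and 2238 at 144 h. ASPM turned to 0.51 (not called) and 2.69 (called) with the covariate, and TOP2A at 144 h turned to 0.060.

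After treatment the set stood higher in ELF-153. At 96 h, 37 members were higher and none lower than in treated UCSD-AML1, where 20.8% of all genes were higher and 22% lower, with a median of 1.89 (39 higher with the GC trend removed). With the trend removed 4298 of all genes were higher and 3991 lower. Without the outlying replicate 2 of treated ELF-153, 35 were higher, ASPM and TOP2A no longer among them, and BUB3 (-1.71, adjusted p = 0.00998) and BUB1 (-1.15, adjusted p = 0.0131) were called lower. BIRC5 led by its fitted value, with 49 reads in treated ELF-153 and 2 in treated UCSD-AML1, a ratio of 22.3 (5.86 to 189). SKA1 (log2 3.11 ± 0.18, 8.63-fold) and MKI67 (3.04 ± 0.31, 8.22-fold) followed. At 144 h, 41 were higher and none lower (30% and 14.6% of all genes), with a median of 2.64, led by KIF18A (5.16 ± 0.61, 35.8-fold), KIF4A (4.42 ± 0.20, 21.5-fold) and ASPM (4.40 ± 1.07, 21.0-fold). With the GC trend removed 36 were higher, with a median of 2.16. In that fit 3983 of all genes were higher and 3928 lower, and their median was 0.03. TMM scaling moved the median of all genes from 0.39 to 0.05 and their split from 5152 higher and 2503 lower to 3487 and 3552, with 38 members higher and none lower. Because these comparisons share libraries with the DAC effects of each line, they are no independent support for them.

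The difference between the DAC effects, ELF-153 minus UCSD-AML1, was tested directly in the same fit. At 96 h it was above 0 (a smaller fall in ELF-153) in 23 members and below 0 in 2, where 17.1% of all genes were above and 8.71% below, and the median was 1.56. At 144 h it was again above 0 in 23 and below in 2 (19.9% and 10.1% of all genes; median 1.58). The 2 members below 0 were TACC3 and SMC4 at each harvest. After removal of the GC trend 18 and 20 members were above 0 and 2 below, with medians of 1.21 and 1.35. Over all genes 1991 were then above 0 and 1734 below at 96 h, and 2531 and 2114 at 144 h. TMM scaling moved the median of all genes from 0.19 to 0.00 at 96 h and from 0.21 to -0.11 at 144 h. It moved their split from 3011 above and 1533 below 0 to 2343 and 2048 at 96 h, and from 3420 and 1741 to 2614 and 2837 at 144 h, with 19 and 20 members above and 2 below. By role, members above 0 at 96 h were 6 of 9 in the kinetochore, 4 of 8 kinesins, 4 of 6 spindle proteins, 3 of 5 in anaphase, 2 of 5 each in the checkpoint and chromosome structure, 1 of 5 kinases and regulators, 1 of 4 passengers and 0 of 3 in cytokinesis.

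The 3 largest differences at 96 h were ASPM (log2 4.80 ± 0.99, adjusted p = 0.00423), KIF14 (4.10 ± 0.58, adjusted p = 0.00033) and NDC80 (3.89 ± 0.60, adjusted p = 0.000624). They were 3.90, 3.57 and 3.35 without replicate 2 of treated ELF-153. At 144 h the largest were ASPM (6.13 ± 1.52, adjusted p = 0.0127), KIF18A (6.12 ± 0.86, adjusted p = 0.000486) and NDC80 (5.64 ± 0.83, adjusted p = 0.000672). TACC3 was at -1.47 ± 0.27 (adjusted p = 0.00201) and -1.78 ± 0.31 (adjusted p = 0.00151), and SMC4 at -1.23 ± 0.24 (adjusted p = 0.00327) and -1.17 ± 0.23 (adjusted p = 0.00356). The larger differences lay among the members of lower GC content: the median at 96 h was 2.61 over the lower-GC members and 0.99 over the higher-GC ones, and 1.35 and 0.84 with the GC trend removed. The 144 h medians were 2.79 and 1.08, and 1.598 and 1.24 with the trend removed. Over members, Spearman's rho between this difference and GC content was -0.56 at 96 h and -0.54 at 144 h, given as a description, since members share libraries.

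**Figure D5:**
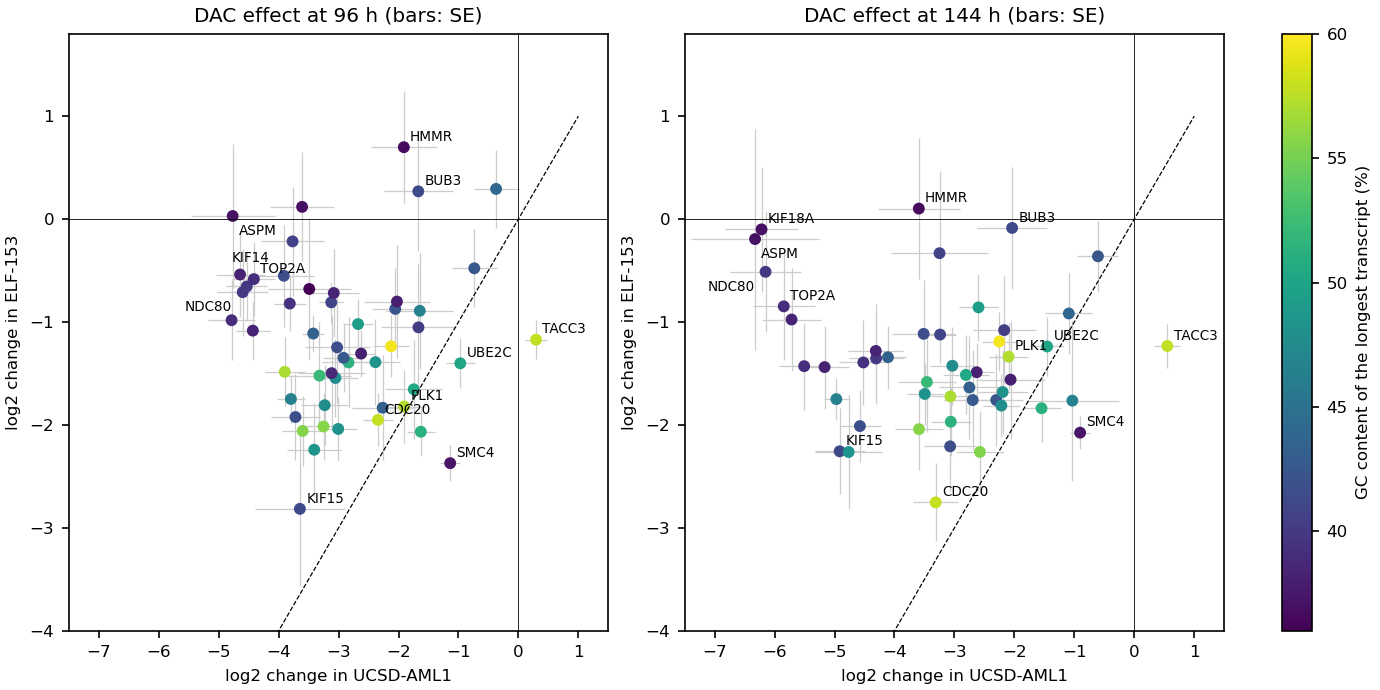
DAC effect in UCSD-AML1 (x axis, log2 change) against that in ELF-153 (y axis, log2 change) for each tested member, a panel per harvest; bars are standard errors, colour is the GC content of the longest transcript, and the dashed line marks equal change. Most members lie above the line, with ASPM, KIF14 and NDC80 farthest from it at 96 h, and TACC3 and SMC4 lie below it.

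In the main fit no member's DAC effect was called different between the harvests. The tables of 96 h and 144 h were scaled separately, and a joint fit over all 24 libraries called 0 of the members in either line. Over all 18544 genes tested it called 0.0377% higher and 0.0701% lower in UCSD-AML1, and 0.0431% higher and 0% lower in ELF-153. At an unadjusted p of 0.05, 1 member was higher and 3 lower in UCSD-AML1, and 0 and 1 in ELF-153, and edgeR and DESeq2 also called 0 members. With the GC trend removed and the replicate block, 1 member was called lower in UCSD-AML1. Smaller differences can be missed: in simulated data the UCSD-AML1 test recovered 10.45% of 2-fold and 68.66% of 4-fold differences. The simulated libraries had a set spread and no GC trend of their own, unlike the real ones, so these shares need not hold here. The member farthest from 0 in UCSD-AML1 was KIF18A, with a further change of -2.61 ± 0.91 from 96 h to 144 h (adjusted p = 0.361).

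Other genes of the same machinery were lower in part. Of 135 further genes in 7 lists, 127 were tested at 96 h, of which 80 fell and 5 rose in UCSD-AML1 (median -1.29) and 54 fell and 3 rose in ELF-153 (median -0.59). At 144 h, 74 of 125 fell and 7 rose in UCSD-AML1 (-1.48), and 56 fell and 2 rose in ELF-153 (-0.83). By list, 22 of 27 further kinetochore genes, 16 of 22 kinesin, spindle and midbody genes, 10 of 17 DREAM and E2F genes, 8 of 14 cohesin genes, 10 of 21 centrosome genes, 9 of 21 checkpoint and anaphase-promoting complex genes and all 5 condensin genes fell in UCSD-AML1 at 96 h. In ELF-153 the counts in that order were 15, 12, 10, 2, 7, 4 and 4. Over all genes 20.1% and 12.9% fell in the lines at 96 h and 26.8% and 18.2% at 144 h, so the cohesin list (2 of 14) and the checkpoint and anaphase-promoting complex list (4 of 21) in ELF-153 at 96 h lay near the share of all genes.

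CEP55, which recruits the abscission machinery to the midbody, went from 1170, 1201 and 1047 to 38.4, 54.0 and 44.7 in UCSD-AML1 at 96 h, a log2 change of -4.62, and -5.77 at 144 h. SPC24, the fourth subunit of the NDC80 complex, went from 863, 867.1 and 774.9 to 43.3, 71.9 and 26.2 in UCSD-AML1 (-4.23) and from 1171, 1075 and 1060 to 221.6, 228.5 and 250.5 in ELF-153 (-2.23). TRIP13, the ATPase that recycles MAD2, fell by 3.41 and 1.68. Treated libraries of these genes lay below all untreated ones.

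E2F1, an activator of S-phase genes, went from 921.7, 1051 and 900.2 to 104.3, 136 and 99.1 in UCSD-AML1 (-3.08). MYBL2, the MYB subunit of the complex that activates mitotic promoters, went from 1457, 744.7 and 852.1 to 159.1, 123 and 146.8 in ELF-153 (-2.77, and -2.74 at 144 h). CDCA5 (sororin), a keeper of cohesion, fell by 3.16 in UCSD-AML1 and by 1.58 in ELF-153. ESCO2, the cohesin acetyltransferase, fell by 4.02 in UCSD-AML1.

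A few of these genes rose. In UCSD-AML1 the kinetochore linker CENPT went from 15.7, 35.8 and 28.4 to 56.1, 57.3 and 59.3 (log2 1.16, and 1.27 at 144 h). RBL2 (p130), a pocket protein of the repressive DREAM complex, rose by 0.70 and 0.65, and TFDP2 by 0.83 and 0.64. In ELF-153 CDC27, a subunit of the anaphase-promoting complex, rose by 1.31 and the cohesin release factor WAPL by 0.69 at 96 h, and neither was called at 144 h.

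The transcripts to which a gene's reads were assigned varied. How reads shared by overlapping transcripts were counted is not known, so these shares need not be those of the RNA. The members have 1 to 28 transcripts each in the tables, 439 in all. At 96 h the transcript with the most reads was protein coding in 35 members, a retained-intron form in 12 and another processed form in 4, and coding transcripts held under 50% of the reads in 19 members. They held 1.596% of the reads of PLK1 and 3.358% of those of ESPL1. Without retained-intron and processed transcripts 37 of 42 tested members fell in UCSD-AML1 at 96 h and 36 of 41 at 144 h, and 23 of 42 and 27 of 41 in ELF-153. Near-identical copies make some members uncertain, since the reads of a gene and its copy may be split between them: over the 96 h libraries the mean level of the pseudogene BUB3P1 was 203.7, that of RACGAP1P 203.1, that of UBE2CP4 89.3, that of the PTTG1 copy PTTG2 58.8, that of NEK2P4 30.4 and that of AURKAP1 13.4.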

How the data were processed

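The deposited values are signal: reads per Ensembl transcript divided by the authors' size factor for each library, in a table per harvest. Per the submitters' processing notes, FastQC, TopHat2, STAR, HTSeq and DESeq2 were used with build hg19; versions and the step each served are not given in the sources used here. All non-zero values were whole multiples of a library's step (tolerance 0.01), so whole reads could be recovered. Replicate libraries of a group differed beyond counting noise (chi-square per degree of freedom of 3.8 to 240.75). Depth was 13148881 to 28528757 reads; counting intervals are 95% intervals and, like floors of 3 reads, cover counting error only.

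Of 204940 transcripts, 181859 matched GENCODE release 29 (97.78 and 97.83% of the value at 96 h and 144 h) and were summed to 52994 genes. Tests were made with limma (version 3.58.1, R 4.3.3) on log2(level + 1), with a mean for each group over the 12 libraries of a table and a robust trended prior, after keeping genes that reached 10 in 3 libraries or more; p-values were adjusted by Benjamini-Hochberg over all genes tested. A fold change is therefore on the log2(level + 1) scale and understates the change of low genes. Differences of DAC effects between lines were contrasts of the same fit, and those between harvests came from a fit over 24 libraries. The design had named a count test only for raw counts, and the values were scaled, so limma stayed the main test. Python 3.11.15 with numpy 2.4.6, pandas 2.3.3, scipy 1.17.1 and matplotlib 3.10.9 made the tables and figures.

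Alternatives were edgeR 4.0.16 (quasi-likelihood, TMM) and DESeq2 1.42.0 on the recovered reads, TMM scaling in limma, pseudocounts of 0.5 and 8, a filter at 1, the 6 libraries compared alone, the replicate number as a block, the mitochondrial ribosomal RNA share as a covariate, no retained-intron or processed transcripts, and each library left out. Removal of each library's loess trend on GC content (span 0.3), with and without the block, was added after seeing the data. The fit was tested on simulated data. In UCSD-AML1 at 144 h the libraries sharing a replicate number across treatments deviated together (correlations of 0.133, 0.123 and 0.264), so there the numbers were taken as possible pairs. Untreated replicate 2 correlated more with treated replicate 1 (0.14). Both replicate 3 libraries had a high rho with GC content (0.73 untreated, 0.61 treated), and the part of this was not tested. The main fit does not use the pairs. In the other 3 pairs of groups at least 1 same-number correlation was under 0.1.

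The members, roles, marker lists and pathway lists were chosen with earlier results of these data known. Members were picked as the 4 largest falls and the 3 changes nearest 0 of each DAC comparison, with 15 fixed members besides. At 96 h per-library values are printed for the members picked at that harvest, in the line in which they were picked, and for the fixed members. TPX2 is the exception, with reads per group. HMMR, picked at 144 h, has no per-library values printed, and KIF18A has none for UCSD-AML1 at 96 h. At 144 h many have only a fold or a log2 change, and some, such as KIF15 in ELF-153, have no value printed. For line comparisons the 3 largest called differences each way are named. Of each pathway list up to 2 genes per direction are named, by adjusted p at 96 h. Per-library values of other members, and CENPF, MAD2L1, UBE2C and KIF4A among them, were added after their values were seen. Repeat families are not used here. The result of a further marker list is not reported here.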

Additional observations from a re-analysis of the deposited data

Results flagged for a closer look

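The DAC effect differed between the lines by limma's test of the difference itself in 10 cases that the naming rule picked, 5 at each harvest, all as ELF-153 minus UCSD-AML1 on the log2 scale. At 96 h the values were 4.80 for ASPM, 4.10 for KIF14 and 3.89 for NDC80, all smaller falls in ELF-153. They were -1.47 for TACC3, which was called lower in ELF-153 and not called in UCSD-AML1, and -1.23 for SMC4, whose fall was larger in ELF-153. After removal of each library's GC trend the 5 values were 3.53, 2.93, 2.86, -1.08 and -2.49. Without the outlying replicate 2 of DAC-treated ELF-153 they were 3.90, 3.57, 3.35, -1.35 and -1.28.

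At 144 h the differences were 6.13 for ASPM, 6.12 for KIF18A, 5.64 for NDC80, -1.78 for TACC3 and -1.17 for SMC4. After that removal they were 4.71, 4.70, 4.39, -1.29 and -2.58. Without the outlying replicate 3 of untreated UCSD-AML1 they were 6.88, 6.64, 6.11, -2.02 and -1.14, and without replicate 1 of untreated ELF-153 they were 7.11, 6.78, 6.39, -1.92 and -1.30. At 96 h the untreated levels of ASPM, NDC80, KIF14 and KIF18A were lower and those of TACC3 and SMC4 higher in ELF-153 than in UCSD-AML1, and the part of that, and of the mitochondrial ribosomal RNA share, in these differences was not tested.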

How the results depend on the processing

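Over the members and their counts, 10589 of the values under alternatives stayed on their side of the threshold, 462 lost and 193 gained a call, and 24 reversed. Uncalled values changed sign in 423 cases, which are counted within these classes and not apart from them. With the mitochondrial ribosomal RNA share as a covariate 44 of 50 members fell in UCSD-AML1 and 22 of 50 in ELF-153 at 96 h. At 144 h the counts were 45 and 33 of 48. Over all genes 4491 and 1350 of 17609 fell at 96 h, and 5809 and 3109 of 17180 at 144 h. In that fit 1 member was called higher after DAC in UCSD-AML1 at each harvest (1 and 1), and 1 was lower in treated ELF-153 at 96 h. Of untreated ELF-153 against UCSD-AML1 5 members were higher and 2 lower at 96 h, where 1875 and 2618 of all genes were. At 144 h these were 16 and 0, where 3510 and 2238 of all genes were. In that fit the DAC effect of KIF18A in ELF-153 at 96 h was -1.89; untreated differences reversed at 96 h for ASPM (0.51), NDC80 (0.41), KIF14 (0.34), KIF18A (1.17), CDCA8 (-0.58), MAD2L1 (0.25) and BUB1 (0.83), and at 144 h for ASPM (2.69), NDC80 (0.44), KIF18A (1.32), TOP2A (0.060), MAD2L1 (1.49) and AURKB (-0.25). With the GC trend removed 6 members were lower in untreated ELF-153 at 96 h, ECT2 (1.29), CENPF (0.68) and MAD2L1 (0.28) reversed there, SMC4 in UCSD-AML1 at 144 h was at 0.036 and the line difference of KNL1 at 144 h at -0.22, the same as with the block added. With the GC trend removed and the replicate block, 44 members fell in ELF-153 at 96 h, where 3018 of all genes fell. ASPM was at -0.64 and KIF18A at -0.55 there, and 1 member was lower in the time difference of UCSD-AML1. The line difference of ESPL1 at 144 h was -0.043 without retained-intron and processed transcripts. TACC3 was the 1 member higher in UCSD-AML1 at 144 h under TMM in limma, the replicate block, edgeR and DESeq2. Leaving out single libraries gave at 96 h 43 to 46 lower members (UCSD-AML1) and 25 to 33 (ELF-153), and at 144 h 42 to 45 and 27 to 32, 0 to 1 higher in UCSD-AML1 at 144 h (1 without untreated replicate 3), 0 to 2 lower in treated ELF-153 at 96 h (2 without treated ELF-153 replicate 2), 1 to 7 lower in untreated ELF-153 at 144 h, and 18 to 23 and 17 to 23 line differences above 0. With the replicate block 47 and 31 members fell at 96 h in UCSD-AML1 and ELF-153 and 44 and 32 at 144 h; outside UCSD-AML1 at 144 h the numbers were not taken as pairs (same-number correlations from -0.316 to 0.327), and not every library correlated best with its own number. In ELF-153 at 144 h 2 of 3 were below 0. The cause of these changes was not tested. Few reads in treated UCSD-AML1, at 96 h, 144 h or both, limit AURKA, CDC25C, BIRC5, TTK, CENPE, NUF2, SKA3, KIF15, DLGAP5, ECT2 and SGO1. TPX2 had few reads in every group, untreated ones included. The cause of these low counts was not tested.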
